A study of Mus musculus with 2 samples.

Results

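Kupffer cells are the resident macrophages of the liver, and 33 genes that mark them, macrophages and other leukocytes in general, or antigen presentation by MHC class II were read from 2 arrays of mouse liver RNA. The genes were taken by symbol from the platform annotation, and each was read from its brightest probe set. The 33 genes were kept apart as 8 resident Kupffer cell markers, 20 general myeloid markers and 5 MHC class II genes. Of these, 32 had a probe set with a single symbol, out of 12393 genes with such a probe set. Timd4, which encodes a phosphatidylserine receptor of resident macrophages, had no probe set under that symbol and was not analysed here.

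The question of the series was whether liver gene expression differs with the kind of olive oil eaten. The liver RNA of both groups came from animals without apolipoprotein E, and both diets were high in fat. The group titled orujo ate a diet enriched with the oil's unsaponifiable fraction, the sterols, alcohols and hydrocarbons left after saponification, and the group titled olive ate one enriched with olive oil itself. Each group was 1 Affymetrix array, called the orujo array and the olive array here, prepared from about 8 µg of total RNA. Strain, sex and age, the duration of feeding and any pooling of RNA are not stated in the labels. Without replicates, each ratio compares these arrays alone and the diets could not be tested.

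Kupffer cells line the sinusoids and clear particles, modified lipoproteins, old red cells and complement-coated bacteria from portal blood through scavenger, complement and Fc receptors. They share most of their myeloid genes with monocytes and with macrophages of other tissues, whereas a smaller group of genes marks residence in the liver. MHC class II molecules are pairs of an alpha and a beta chain that carry peptides from endocytosed protein to CD4+ T cells. Dendritic cells, B cells and macrophages make them, under the coactivator CIITA. In RNA of whole liver, fewer cells of a type and less RNA per cell cannot be told apart.

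CIITA is recruited to class II promoters by factors bound at the X and Y boxes, and the promoters of H2-Aa and H2-Eb1 are shown because these genes encode an alpha and a beta chain of the group with the narrowest range of ratios below. Sequences are from RefSeq (GRCm38.p6), and 25 of the 33 genes had an entry. The letters searched on both strands in the 250 bases before the start were GCAAC, the core of the X1 box bound by RFX, TGACGTCA, the site of CREB-type factors, and CTGATTGG, the Y box bound by NF-Y. Capitals mark the matches. The H2-Aa window is chr17:34287824-34288073 on the minus strand and the H2-Eb1 window is chr17:34305617-34305866 on the plus strand, each printed 5′ to 3′ from the gene's strand.
H2-Aa: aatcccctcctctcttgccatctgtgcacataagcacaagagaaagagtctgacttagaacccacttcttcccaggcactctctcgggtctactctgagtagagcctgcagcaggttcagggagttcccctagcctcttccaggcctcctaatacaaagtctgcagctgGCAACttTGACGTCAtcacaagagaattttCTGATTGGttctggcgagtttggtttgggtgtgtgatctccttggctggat
H2-Eb1: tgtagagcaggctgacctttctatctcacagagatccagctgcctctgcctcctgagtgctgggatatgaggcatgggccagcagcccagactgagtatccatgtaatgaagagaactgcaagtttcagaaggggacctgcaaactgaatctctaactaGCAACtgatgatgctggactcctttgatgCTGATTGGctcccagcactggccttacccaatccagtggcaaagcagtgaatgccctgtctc

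The Y box began 51 bases before the start in H2-Aa and 62 bases before it in H2-Eb1, and 25 and 24 bases separated it from GCAAC upstream. TGACGTCA was present in H2-Aa, 74 bases before the start, and not in the H2-Eb1 window. Over all 32851 promoter windows of this length, 3.83% held CTGATTGG, 29.9% held GCAAC and 1.55% held TGACGTCA. GCAAC 20 to 30 bases before CTGATTGG, a spacing chosen after these promoters were seen, was found in 20 windows (0.0609%) of 18 genes. Of these 18 genes, 4 encode class II chains: H2-Aa, H2-Eb1, H2-Eb2 and H2-Oa. H2-DMa held no CTGATTGG in either of its windows. The class II genes H2-Ab1 and Cd74 had no promoter entry, so their promoters were not searched. Of the 30 windows of the marker genes, 13 (43.3%) held GAGGAA, the core of the site of the myeloid factor PU.1, against 23.3% of all windows. By gene, 12 of 25 held GAGGAA, since overlapping windows of Fcgr3 both held it. The longer form GAGGAAGT was in 0 of the 30 windows and in 2.44% of all windows. These are matches of letters only.

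Signals are the deposited intensities after each array was scaled to a common trimmed mean. The median over all probe sets, 35.6, served as a floor that stands in for detection calls, and a gene above it on both arrays is called measured. Log2 ratios are given as orujo minus olive. On the 2 arrays, 6640 genes were measured, their median log2 ratio was −0.02, and 11.1% lay at least 1.5-fold apart in either direction (5.57% higher and 5.56% lower on the orujo array). In 2057 genes with a second measured probe set, the spread between probe sets put the measurement error of a single log2 ratio at 0.30 (SD). That error was 0.33 for signals between the floor and 100, and 0.26 above 300. It covers neither labelling, hybridisation nor animals.

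Of the 33 marker genes, 26 were measured and 6 lay below the floor on both arrays. The 26 had a median log2 ratio of −0.02, equal to that of all measured genes to 2 decimals, with 12 higher and 14 lower on the orujo array. Only Ptprc and Lcp1, both general myeloid markers and both lower, were at least 1.5-fold apart, which is 7.69% of the 26 against the 11.1% of all measured genes. None of the 26 reached 2-fold, against 2.33% of all measured genes. In size, 16 of 26 ratios (61.5%) were under the error of a single probe set, as were 62.9% of all measured ratios. The median size of the ratio was 0.19 for the markers and 0.22 for all measured genes.

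**Figure D1:**
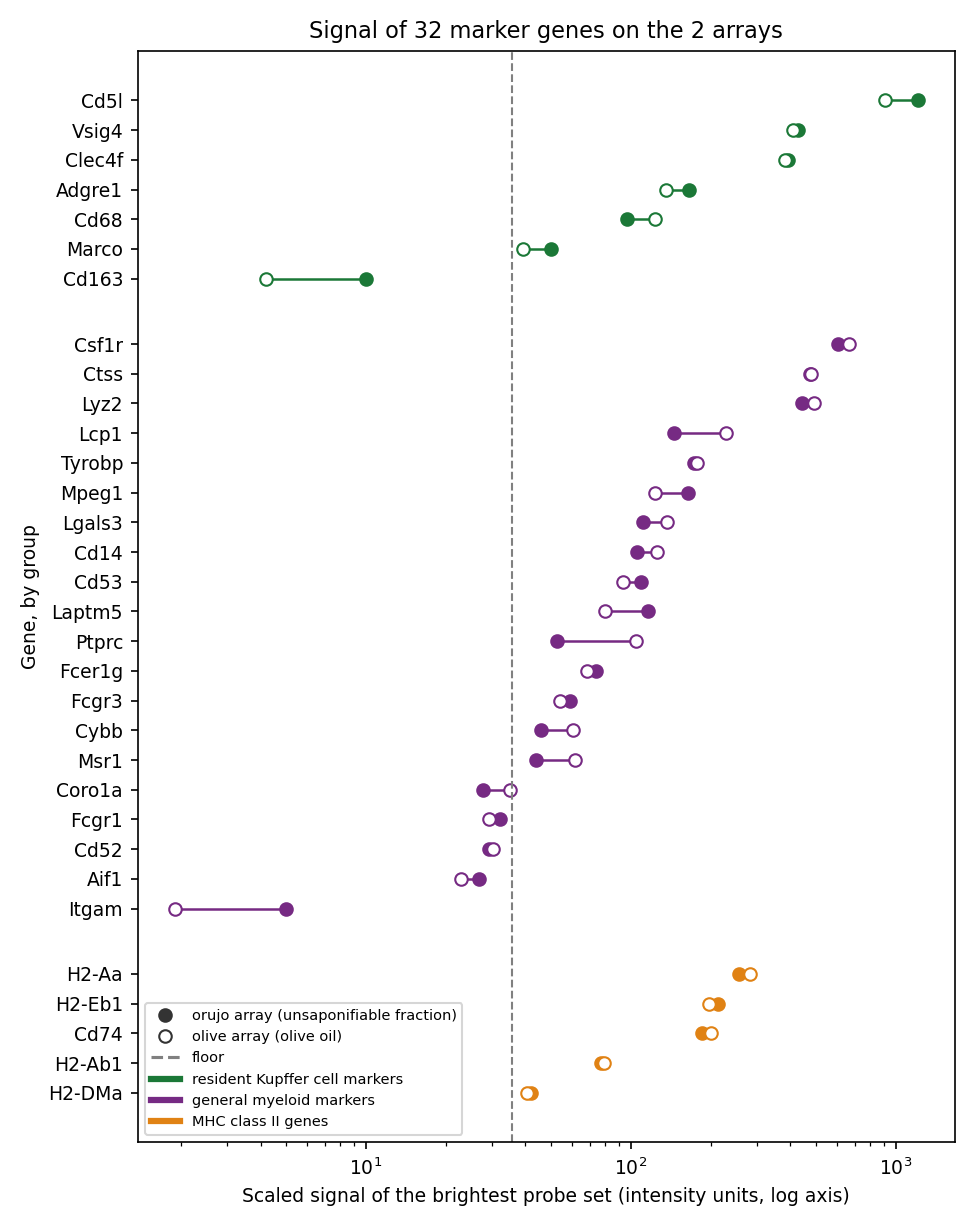
Scaled signal of the brightest probe set of 32 marker genes (intensity units, log axis) on the orujo array (filled) and the olive array (open), with the floor of 35.6 as a dashed line. The symbols lie close together for most genes; Ptprc and Lcp1 have the widest gaps among genes above the floor, and 6 genes lie left of it. Signals of different probe sets are not comparable with each other.

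Resident Kupffer cell markers gave signals above the floor on both arrays in 6 of 8 genes. Clec4f, a C-type lectin receptor that Kupffer cells are defined by, had a signal of 390.2 on the orujo array and 381 on the olive array, a log2 ratio of 0.03. Vsig4, the complement receptor that captures opsonised bacteria, had 429 and 409 (0.07). Clec4f and Vsig4 thus differed by less than 1.05-fold between the arrays, and these were the smallest of the group's 6 measured ratios.

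Cd5l, which encodes a secreted macrophage protein that binds lipids and pathogen patterns, had the largest ratio of the group. Its signal was 1208 on the orujo array and 911 on the olive array, 1.33-fold higher on the former (log2 ratio 0.41). Of all measured genes, 24.2% had a ratio at least as far from 0. Marco, a scavenger receptor for bacteria and particles, was at 50.1 and 39.2 (0.35), close to the floor on the olive array. Adgre1, the adhesion receptor behind the classical macrophage antibody, was at 165 and 136 (0.28). Cd68, a glycoprotein of macrophage lysosomes, was the 1 measured member that was lower, at 96.8 and 124 (−0.35). Cd163, the scavenger receptor for haemoglobin bound to haptoglobin, was at 10.0 and 4.20, below the floor on both arrays, and has no ratio.

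The group's median log2 ratio was 0.18, with 5 of 6 measured genes higher, against 47.5% higher among all measured genes. None of the 6 was 1.5-fold apart, and 3 of the 6 ratios were smaller than the error of a probe set. The median moved between 0.07 and 0.19 over the processing alternatives and was 0.07 over 5 genes without probe sets of shared sequence, where Adgre1 drops out. Each of the 6 had 1 probe set, so no second measurement of them was at hand.

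General myeloid markers were spread about as widely as all measured genes, with an SD of the log2 ratio of 0.40 against 0.42. Of 20 genes, 15 were measured, 5 higher and 10 lower on the orujo array (66.7% lower, against 52.5% of all measured genes), with a median log2 ratio of −0.13 against −0.02. The lowest was Ptprc, which encodes CD45, the phosphatase on all leukocytes. Its signal was 52.8 on the orujo array and 105 on the olive array, 1.99-fold lower on the former (log2 ratio −0.99). This was the 66th lowest ratio of 6640, and 2.36% of measured genes lay as far from 0. Ptprc had a single probe set, of the kind that matches several transcripts of a gene.

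Lcp1, which encodes the leukocyte actin-bundling protein L-plastin, was at 145 and 228, 1.57-fold lower (−0.65). Its second probe set gave 99.6 and 142, a ratio of −0.51, so both probe sets were lower on the orujo array. Coro1a, another actin-binding protein of leukocytes, was at 27.7 and 35.0, below the floor on both arrays. Cd53, a tetraspanin of leukocytes, went the other way at 110 and 93.5 (0.23), and Cd52, a short glycoprotein of lymphocytes and monocytes, was below the floor at 29.0 and 30.1. Of these 5 genes, which mark leukocytes broadly, 2 were measured as lower, 1 as higher, and 2 had no ratio. Outside this set of 5, Laptm5, also a gene of blood cells, was higher (0.54).

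Laptm5, a lysosomal membrane protein of blood cells, had the highest ratio of all the markers. It was at 116 and 80.0, 1.45-fold higher on the orujo array (0.54). Its other probe sets were above the floor on that array only, at 70.2 and 32.6, a bound of at least 1.97-fold, and at 42.2 and 32.8, a bound of at least 1.19-fold. All 3 probe sets were therefore higher on the same array, although each is of a kind that can share signal with related transcripts. Mpeg1, a pore-forming protein that macrophages turn on engulfed bacteria, was at 164 and 123 (0.41).

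The receptor genes Csf1r, Msr1 and Cd14 were lower in their brightest probe sets. Csf1r, the receptor for the growth factor that macrophages need to survive, was at 607 and 664 in its brightest probe set (−0.13), while its other probe sets gave 0.06 and 0.32, so that its direction depends on the probe set. Msr1, the scavenger receptor that takes up modified low-density lipoprotein, was at 43.8 and 61.4 (−0.49), and its other 3 probe sets lay below the floor. Cd14, the co-receptor for bacterial lipopolysaccharide, was at 105 and 126 (−0.26). Itgam, the integrin chain CD11b, was at 5.01 and 1.90, far below the floor, and has no ratio.

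The Fc receptor genes stayed near equal signals. Fcgr3, a low-affinity receptor for IgG, was at 58.9 and 53.9 (0.13), and Fcer1g, the signalling chain that Fc receptors share, was at 74.1 and 68.5 (0.11). Tyrobp, the adaptor for activating receptors of myeloid cells, was at 173 and 178 (−0.04). Fcgr1, the high-affinity IgG receptor, lay below the floor at 32.0 and 29.1.

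Among effector genes, Lyz2, lysozyme of myeloid cells, was at 441 and 492 (−0.16), and Ctss, the protease that trims the invariant chain of class II, at 475 and 479 (−0.01). Cybb, the catalytic subunit of the phagocyte NADPH oxidase, was lower at 45.6 against 60.6 (−0.41), and Lgals3, a galectin of activated macrophages, at 111 against 137 (−0.31). Aif1, a calcium-binding protein of macrophages, was below the floor at 26.7 and 22.9. Of the 15 measured general myeloid ratios, 8 were smaller than the error of a probe set.

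**Figure D2:**
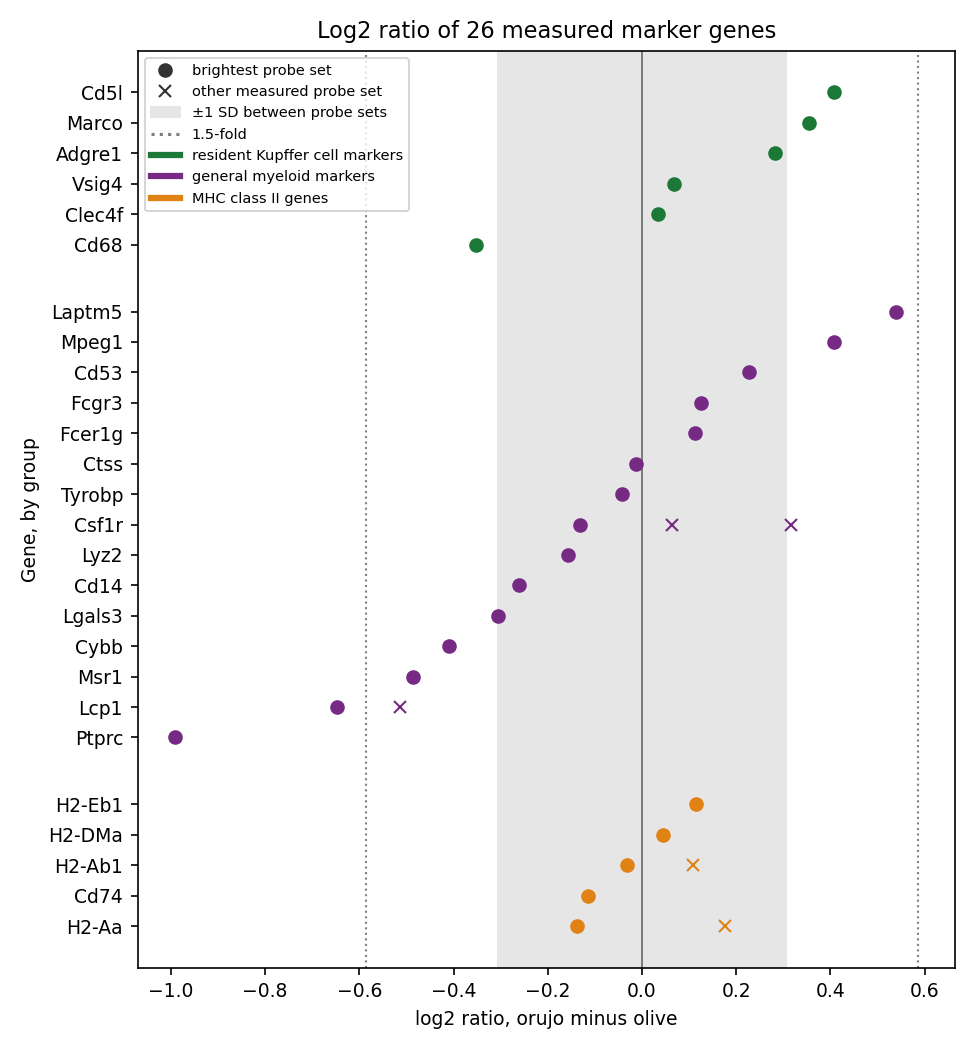
Log2 ratio (orujo minus olive) of the 26 measured marker genes, ordered within each group; dots are the brightest probe set, crosses other measured probe sets, the grey band is ±1 SD of the measurement error between probe sets (0.30) and the dotted lines are 1.5-fold. The 5 class II genes lie inside the band, Ptprc and Lcp1 lie beyond the lower line, and the crosses of Csf1r, H2-Aa and H2-Ab1 lie on the other side of 0 from their dots.

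MHC class II genes had the narrowest range of the 3 groups. All 5 were measured, their log2 ratios lay between −0.14 and 0.11, and the median was −0.03, with 2 higher and 3 lower on the orujo array. Each ratio was smaller than the error of a single probe set. Under the mean over probe sets the median was 0.04, and without probe sets of shared sequence, which leaves 2 genes, it was 0.08, so the group has no direction.

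H2-Aa, the alpha chain of I-A, was at 256 on the orujo array and 281 on the olive array (−0.14). Its second probe set gave 47.1 and 41.8, a ratio of 0.18 in the opposite direction. H2-Ab1, the beta chain of I-A, was at 77.2 and 78.9 (−0.03), with 0.11 in its other measured probe set. H2-Eb1, the beta chain of I-E, was at 213 and 197 (0.11). The alpha and beta chains, whose promoters are printed above for H2-Aa and H2-Eb1, thus lay on both sides of 0 and near it.

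The genes that load the class II groove were as close. Cd74, the invariant chain that blocks the groove until the endosome, was at 186 and 201 (−0.11). H2-DMa, a chain of the H2-DM complex that exchanges the invariant chain remnant for peptide, was at 41.8 and 40.6 (0.04), just above the floor. The probe sets read for H2-Aa, H2-Ab1 and Cd74 match several transcripts of the gene or can share signal with related transcripts.

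Other genes of class II presentation gave few measured values. Of 10 listed genes, 7 had a probe set and 4 were measured, 1 higher and 3 lower, with a median of −0.11. Rfx5, a subunit of the factor that binds the X box, was the lowest at 53.2 and 88.7, 1.67-fold lower (−0.74), and Rfxap, its partner subunit, the highest at 43.4 and 36.1 (0.27). Ciita lay below the floor at 16.3 and 18.9, as did H2-DMb2 and H2-Oa.

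**Figure D3:**
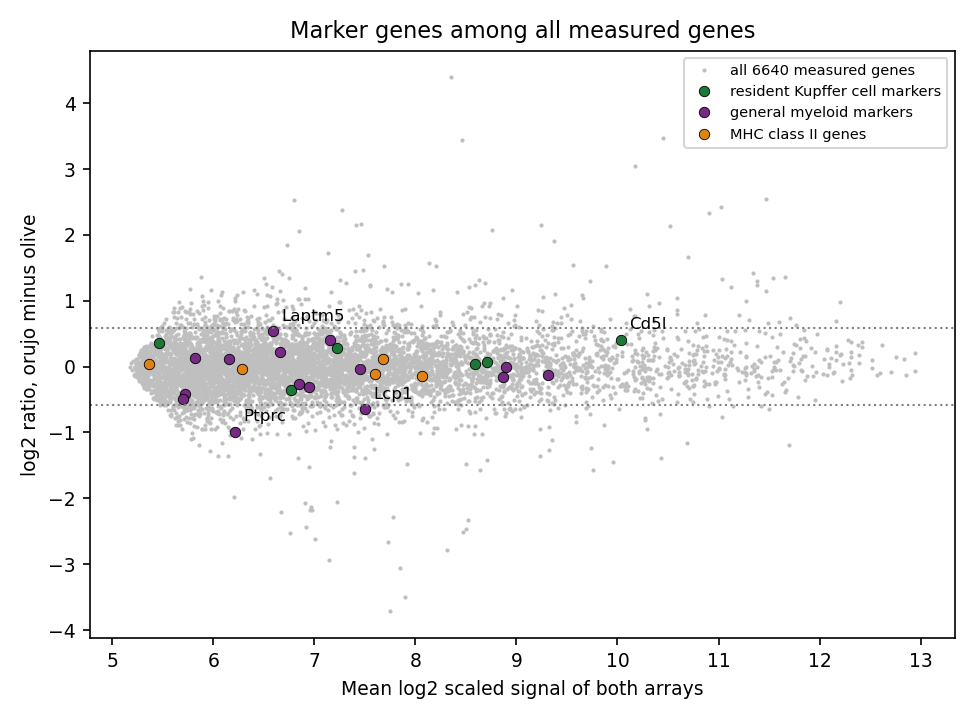
Log2 ratio (orujo minus olive) against the mean log2 scaled signal of both arrays for all 6640 measured genes (grey) and the 26 measured marker genes (coloured by group), with dotted lines at 1.5-fold. The markers lie within the grey cloud at every brightness, and only Ptprc and Lcp1 fall below the lower line.

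Further macrophage genes were read from a pair of lists that hold none of the 33. Of 21 other macrophage genes, 15 were measured, 7 higher and 8 lower, with a median of −0.02 and none 1.5-fold apart. The highest was C1qc, a chain of complement C1q that liver macrophages make, at 458 and 330 (0.47). C1qa and C1qb, named after their values were seen, were at 0.33 and 0.39. The lowest was Cd300a, an inhibitory receptor, at 84.9 and 97.4 (−0.20). Of 20 genes of Fc receptor, Toll-like receptor and oxidase signalling, 11 were measured, 4 higher and 7 lower, with a median of −0.11, close to that of the general myeloid markers, and none 1.5-fold apart. The lowest was Tlr2, a sensor of bacterial lipoprotein, at 37.0 and 50.5 (−0.45), just above the floor on the orujo array. The highest was Ly86, a partner of a Toll-like receptor homologue, at 51.2 and 46.8 (0.13).

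Monocytes, dendritic cells, B cells and T cells carry Ptprc too, and most of their markers lay below the floor on both arrays, where signals give no ratio. Over all genes, 53.6% were measured. Of 8 monocyte markers with a probe set, 2 were measured, led by Plac8 at 157 and 97.0 (0.70). Ccr2 and Cx3cr1 were below the floor on both arrays, and F13a1 was above it on the olive array only, at 33.1 and 43.0. Of 10 dendritic cell markers with a probe set, 2 were measured, both higher on the orujo array: Fscn1 at 0.65 and Bst2 at 0.35. Flt3, Xcr1, Ccr7 and Zbtb46 were below the floor. Itgax was above it on the olive array only, at 22.9 and 41.9. B cell markers had 3 of 9 measured, from Cd22 at 0.00 to Ighm at 0.27, with Cd79a, Cd79b and Pax5 below the floor. Ms4a1 was above the floor on the orujo array only, at 45.9 and 32.9. T and NK cell markers had 2 of 14 measured, both just above the floor on the orujo array. Il2rb was at 36.9 and 61.6 (−0.74), and Prf1 at 35.8 and 45.5 (−0.34). Cd3d, Cd3g, Cd4 and Cd8a were below the floor and Cd3e was above it on the orujo array only.

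Neutrophils carry Ptprc, Itgam, Lcp1 and Cybb too, and 4 of 13 neutrophil markers were above the floor on the orujo array only, among them S100a8 at 60.8 and 17.2, and none on the olive array only, against 3.18% and 4.71% of all genes. Of the 7 measured, 2 were higher and 5 lower, from Mmp9 with signals of 39.2 and 78.5 to Lcn2, which hepatocytes also make, with 3308 and 400.5. Pancreatic acinar markers were lower by 2-fold or more on the orujo array in 9 of 9 measured genes (0.979% of all measured genes), with a median of −2.78, and the summed signal of the 11 with a probe set was 744 against 5885. Their part in the lower Ptprc and Lcp1 signals was not tested. Endothelial markers, whose cells share the sinusoid with Kupffer cells, had a median of 0.12 over 11 measured genes, and hepatocyte markers 0.12 over 10, with none 1.5-fold apart in either list. Mrc1 (0.23) and Fcgr2b (0.13), measured in the endothelial list, were also counted in the further macrophage lists above. Of 8 measured stellate cell markers, 3 were 1.5-fold apart (37.5%, against the 11.1% of all measured genes), from Acta2 at −0.68 to Col3a1 at 0.72, and their median was 0.14. The 5′ control probe set of 18S ribosomal RNA was at 2.54 on the log2 scale and the 3′ one at 0.34, while the 5′ and 3′ probe sets were at −0.02 and −0.27 for beta-actin and at 0.15 and 0.12 for Gapdh. The part of the 18S difference in the marker signals was not tested.

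**Figure D4:**
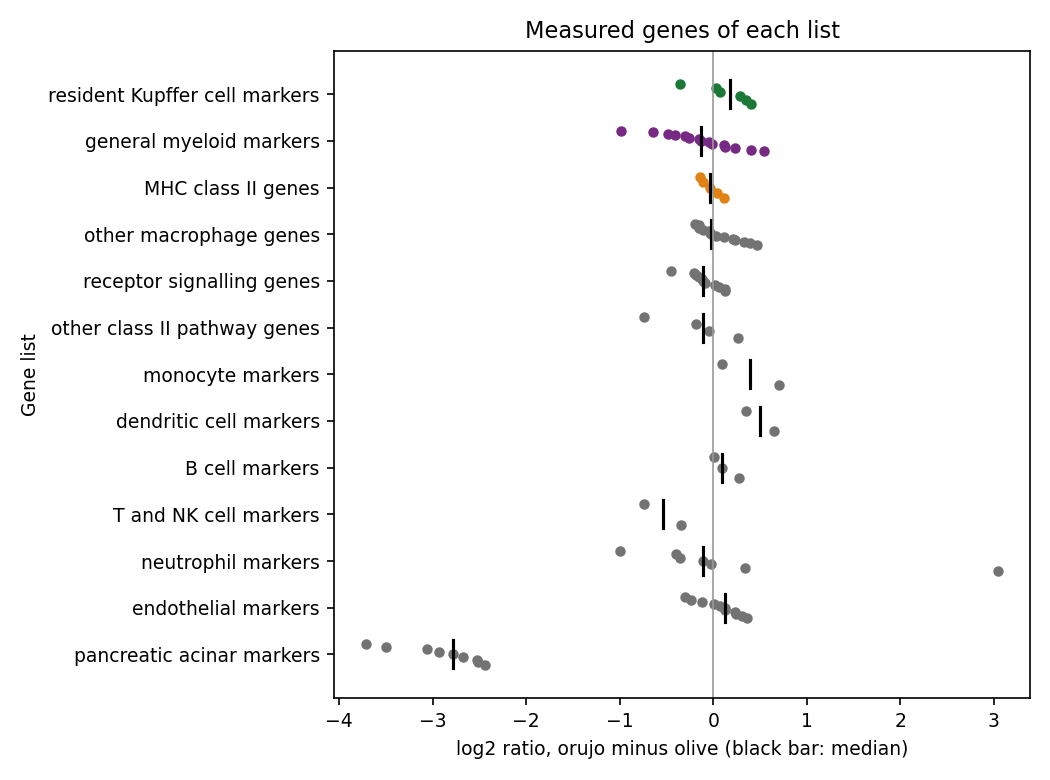
Log2 ratio (orujo minus olive) of each measured gene in the 3 marker groups (coloured) and 10 further lists (grey), with black bars at the medians. The 3 marker groups have medians between −0.13 and 0.18, the 9 acinar markers lie at −2.44 and below, and the monocyte, dendritic, B, T and NK cell lists have 2 or 3 measured genes each.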

How the data were processed

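The authors deposited 1 linear intensity per probe set and array; the labels state neither the software nor detection calls. Over 22690 deposited intensities the 2% trimmed mean was 100.05 on each array. Without 64 control probe sets, the arrays were scaled to the mean of their trimmed means, the pooled 50th percentile (35.6) was set as the lowest value, and log2 was computed. The platform annotation gave 20380 probe sets a single symbol, 691 several symbols and 1555 none. Genes were read only from probe sets with a single symbol. Entrez identifiers of 32 members matched RefSeq (GRCm38.p6). Each gene was read from its brightest probe set. Arrays have no read depth, and 1 array per diet limits precision. All members are named; of other lists, the extremes and genes that define a cell type, the latter chosen after their values were seen. Members and lists were chosen with earlier results of these data known. The calculation was tested on simulated data. Alternatives were no scaling, median centring, quantile normalization, loess (span 0.4), a floor at percentile 25 or 75, log2(value + floor), averaging the probe sets of each gene, excluding those of shared sequence (suffixes such as _s_at, _x_at and _a_at), and other fold limits. Python 3.11.15, scipy 1.17.1 and statsmodels 0.14.6 were used.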

Additional observations from a re-analysis of the deposited data

How the results depend on the processing

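No paired analysis was possible because each diet had 1 array. The count of general myeloid markers at least 1.5-fold apart, 2 of 15, came to 1 once the floor was set at the 75th percentile (Lcp1), 1 with log2(value + floor) (Ptprc), 1 with the mean over probe sets (Ptprc) and 1 without probe sets of shared sequence (Lcp1). The shares of all measured genes at least 1.5-fold apart were then 9.63%, 5.60%, 9.74% and 11.0%, in that order. With a limit of 1.3-fold the count was 6 of 15, and between 24.2% and 30.4% of all measured genes lay that far apart. With a limit of 2-fold it was 0 (2.33% of all measured genes). The count of resident Kupffer cell markers, 0 of 6, was 1 with a limit of 1.3-fold. The members nearest that limit were Cd5l (1.33-fold) and Marco (1.28-fold). Of all measured genes, 24.2% lay at least as far from 0 as Cd5l and 30.4% as far as Marco. The median log2 ratio ranged from 0.07 to 0.19 for resident Kupffer cell markers, from −0.15 to −0.04 for general myeloid markers and from −0.11 to 0.08 for MHC class II genes. The error of a probe set ranged from 0.23 with log2(value + floor) to 0.38 with the floor at the 25th percentile. Counts of ratios smaller than this error use 0.30, and ratios near it could fall on either side. Of 26 measured members, 22 kept their sign under every alternative that measured them. Csf1r, Ctss, H2-Aa and H2-Ab1 did not. Of 217 member values under alternatives, 1 moved by more than the error of a probe set, Ptprc at −0.67 with log2(value + floor). Several alternatives could hardly change a ratio, so these counts say little about its reliability. The scaling factors were 1.001 and 0.999, and another floor leaves the ratio of a gene above it on both arrays as it was. Averaging probe sets or excluding shared ones cannot change the ratio of a gene with 1 probe set. At a floor of 11.8, the 25th percentile, Aif1, Fcgr1, Cd52 and Coro1a had log2 ratios of 0.22, 0.14, −0.05 and −0.33, and Cd163 and Itgam still had none.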

Other observations

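MHC class I presentation and the lysosome, to which Cd68, Laptm5 and Ctss belong, were read from lists that hold none of the 33 genes and are mostly expressed by hepatocytes too. Of 13 class I presentation genes with a probe set, 12 were measured, 8 higher and 4 lower on the orujo array, with a median log2 ratio of 0.19 and none 1.5-fold apart. H2-D1, a class I heavy chain, was highest at 2506 and 1890 (0.41), and Psmb10, a subunit of the immunoproteasome, lowest at 61.0 and 78.2 (−0.36).

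Of 19 genes of lysosomes and lipid-laden macrophages with a probe set, 16 were measured, 11 higher and 5 lower, with a median of 0.12. Ctsl, the lysosomal protease cathepsin L, was at 3317 and 1319, 2.51-fold higher on the orujo array (1.33), from a single probe set. Grn, which encodes progranulin and is named after its values were seen, was at 3092 and 1801 (0.78). Npc2, the cholesterol carrier of the lysosome, was lowest at 787 and 958 (−0.28). Trem2, a lipid receptor of macrophages, was above the floor on the orujo array only, at 39.4 and 30.7, and Gpnmb and Mmp12, genes of lipid-laden macrophages, were below it on both arrays.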
